A study of Mus musculus with 12 samples.

Results

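The plasminogen activator system was followed through 9 genes of the 46078 in the count table, in laser-captured ventrolateral white matter of the mouse spinal cord. They were the rows whose Ensembl gene carries the symbol Plau, Plat, Plaur, Plgrkt, Anxa2, Serpinb2, Serpine2, Thbd or F13a1. Serpinb2 was chosen by its measured level, which was higher in lesions of 8-month-old mice. It passed the filter on low counts only through these lesions. Its values are therefore given as a description without a test, and counts of changed genes cover the 8 others. All 8 had enough counts to be tested.

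White matter of C57Bl6 mice came from 2 ages, young and middle-aged, each with a naïve and an injured group, and the 4 groups had 3 libraries each. Each library was a pool of 5 mice. Young means 6 weeks and middle-aged 8 months in the methods, where the labels give only the words. Injured mice had received lysolecithin, a detergent that strips myelin from axons, in the ventrolateral white matter, and their tissue was taken 72 h (day 3) later. Naïve mice had no lesion, and no vehicle-injected group was analysed here, so that the agent and the injection cannot be told apart. No group carried a transgene or deletion according to the labels. The replicate is the pool, and p-values measure the spread between pools only. Counts on genes came to between 9834447 and 12807437 per pool, so that 3 counts, taken as the limit that a count of 0 allows, equal 0.234 to 0.305 CPM, a gene's counts relative to those of the whole library. Levels are CPM of library sizes scaled with TMM factors, which put pools of unequal composition on 1 scale. RNA was amplified without stated molecular identifiers, and intervals from counts cover counting error only. All 5 oligodendrocyte markers (Mbp, Mog, Mag, Mobp and Cnp) were present in each pool and fell after injury at both ages, with a summed level of 40030 to 44130 CPM in young naïve, 26890 to 32590 in middle-aged naïve, 10260 to 10430 in young injured and 4556 to 7097 in middle-aged injured pools.

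Plasminogen activators are serine proteases that cut the zymogen plasminogen into plasmin, which dissolves fibrin and cleaves matrix proteins. Cell-surface receptors hold the activators and plasminogen next to each other, and serpins, inhibitors that trap their protease in a covalent complex, switch the activators off. In the central nervous system tissue-type activator is made by neurons and vessel cells, while urokinase and its receptor are known from activated microglia, macrophages and migrating cells. Fibrin that leaks into lesions through an open blood-brain barrier is a substrate of the system.

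The promoters of 4 members are shown, those that held a match to AP-1 or PU.1, short motifs of stress-responsive and myeloid transcription. Of the 9 genes, 6 had an entry among the RefSeq promoters (GRCm38.p6), and Plau, Plat and Thbd had none there. Each line gives the 250 bases before the start in the promoter entry, 5′ to 3′ on the gene's own strand. This start lies inside the gene as annotated for Anxa2 (69453683 against 69453620), Serpine2 (79858665 against 79861180) and Plgrkt (29361871 against 29367390). Matches on either strand to the AP-1 motif (TGANTCA) and to the PU.1 core motif (GAGGAA, or TTCCTC on the other strand) are in capitals. These matches did not overlap each other.
Serpinb2 (chr1:107511173-107511422, plus strand): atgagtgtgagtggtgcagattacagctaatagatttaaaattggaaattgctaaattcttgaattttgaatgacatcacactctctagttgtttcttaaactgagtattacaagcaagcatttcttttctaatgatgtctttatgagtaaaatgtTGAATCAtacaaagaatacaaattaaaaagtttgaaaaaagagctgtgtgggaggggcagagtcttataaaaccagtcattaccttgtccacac
Plaur (chr7:24462233-24462482, plus strand): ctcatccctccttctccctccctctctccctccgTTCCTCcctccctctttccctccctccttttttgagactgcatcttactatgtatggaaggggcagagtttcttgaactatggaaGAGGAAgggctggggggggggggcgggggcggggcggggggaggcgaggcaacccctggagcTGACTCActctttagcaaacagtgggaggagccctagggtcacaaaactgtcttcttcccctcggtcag
Anxa2 (chr9:69453433-69453682, plus strand): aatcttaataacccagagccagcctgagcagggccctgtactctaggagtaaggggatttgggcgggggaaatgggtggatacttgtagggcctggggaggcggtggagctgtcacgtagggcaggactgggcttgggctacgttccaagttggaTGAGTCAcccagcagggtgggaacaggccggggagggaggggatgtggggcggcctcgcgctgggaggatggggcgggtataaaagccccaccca
F13a1 (chr13:37050245-37050494, minus strand): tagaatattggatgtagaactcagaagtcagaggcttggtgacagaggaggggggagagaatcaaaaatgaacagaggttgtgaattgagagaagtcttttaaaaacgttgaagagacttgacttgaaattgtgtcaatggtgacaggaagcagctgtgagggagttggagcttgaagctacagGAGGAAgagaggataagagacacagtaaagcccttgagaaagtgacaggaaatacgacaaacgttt

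The AP-1 motif lay 94 bases before the start of Serpinb2, 69 before that of Plaur and 95 before that of Anxa2. It was in none of the windows of F13a1, Serpine2 and Plgrkt. Of 32851 promoters of the same length, 6.7% held this motif. The PU.1 motif lay 216 and 131 bases before the start of Plaur and 66 bases before that of F13a1, against 23.3% of all promoters with at least 1 match. TATAAA, searched likewise on both strands, was found 29 bases before the start of Serpinb2 and 17 before that of Anxa2, and in 12.4% of all promoters. The windows of Serpine2 and Plgrkt, which are not printed, held no match to PU.1 or TATAAA either. These are matches of letters, and no binding was measured.

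Urokinase, tissue-type activator and their receptors did not move as a block between naïve white matter and lesions. Plau, Plaur, Plgrkt and Anxa2 rose in lesions at both ages, and Plat fell at both. Thbd and F13a1 also rose at both ages. Serpine2 rose in young mice and did not pass in middle-aged mice, and these effects did not differ by the test of their difference. In young mice 7 of 8 members rose and 1 fell, where 54.6% of all 15866 genes tested passed in either direction, 28.3% higher and 26.3% lower (edgeR's quasi-likelihood test, Benjamini-Hochberg adjusted p under 0.05). In middle-aged mice 6 of 8 rose and 1 fell, against 58.5% of all genes, 29.2% higher and 29.3% lower. Plau and Plaur are among those that rose, and both passed the filter on low counts through their lesion pools. The members were chosen with earlier results of these data known, so the shares over all genes are no test of these counts. The median log2 fold change of the 8 members was 2.32 in young and 2.57 in middle-aged mice, where the median of all genes was 0.00050 and -0.032. Pools of injured and naïve mice did not overlap for any of the 8 members at either age, 7 being higher and 1 lower. Among all genes, the pools lay apart with lesions higher in 35% and lower in 32.2% at the young age, and in 31.5% and 29.7% at the middle age. In bulk tissue fewer cells of a type and less RNA per cell cannot be told apart.

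**Figure D1:**
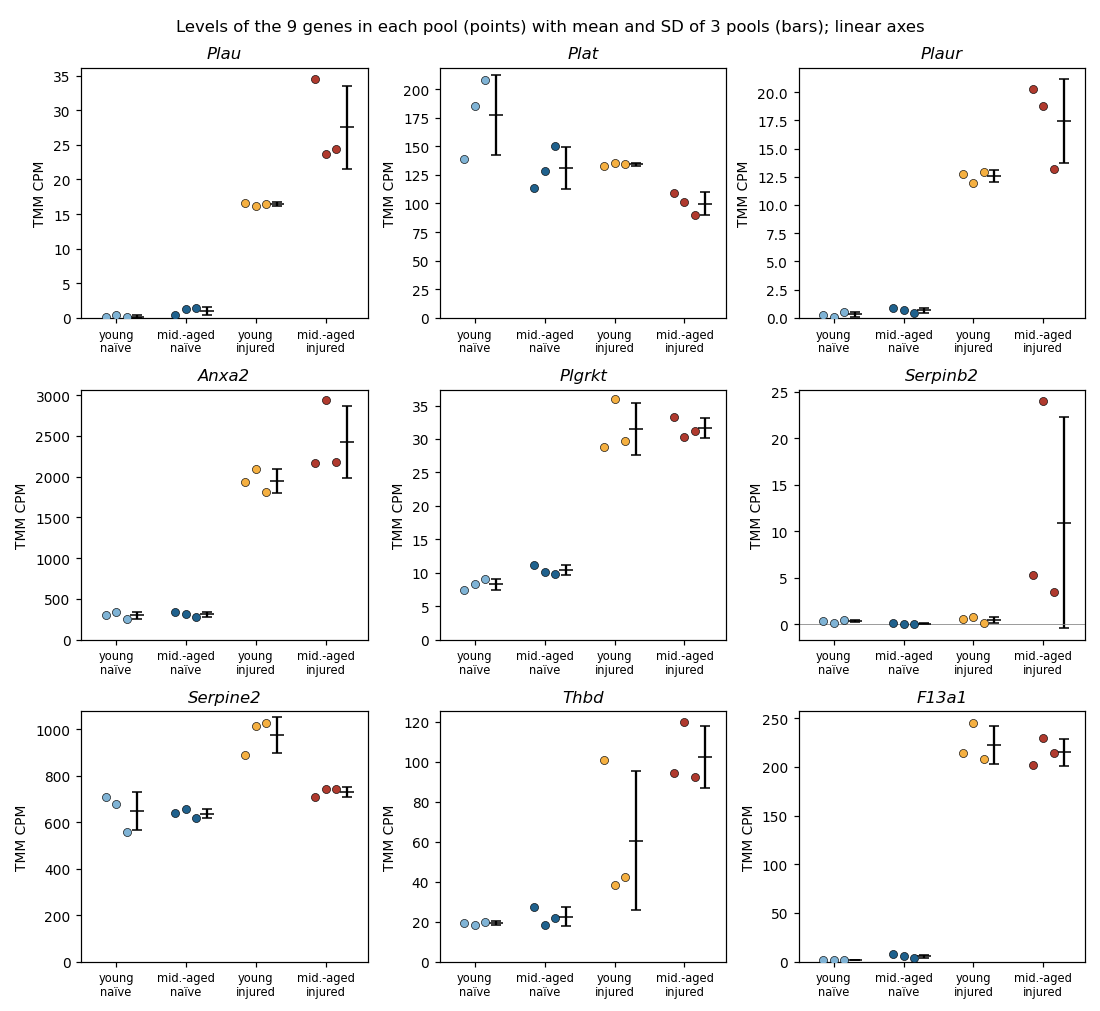
Level of each of the 9 genes in every pool, in TMM CPM on linear axes that differ between panels. Points are pools, and the bars at the right of each group give the mean and SD of 3 pools. Lesion pools lie above naïve pools for Plau, Plaur, Plgrkt, Anxa2, Thbd and F13a1, those of each age lie below the naïve pools of that age for Plat, and Serpinb2 reaches 24.0 CPM in 1 middle-aged injured pool and at most 5.31 CPM in the others.

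Plau encodes urokinase, the activator that works bound to cells. The annotation places it at chr14:20836660-20843385 on the plus strand of GRCm38 (ENSMUSG00000021822). Its counts were 1, 4 and 1 in young naïve pools, 4, 12 and 18 in middle-aged naïve, 227, 209 and 219 in young injured and 415, 297 and 283 in middle-aged injured pools. Lesions were far above naïve tissue in every pool, and naïve tissue of young mice lay near the limit of detection. The level went from 0.187 ± 0.152 to 16.4 ± 0.234 CPM in young mice (SD, n = 3) and from 1.03 ± 0.565 to 27.5 ± 6 CPM in the older mice. On the log2 scale this was a change of 6.35 ± 0.44 (SE, adjusted p = 3.17e-08, edgeR) and 4.71 ± 0.35 (adjusted p = 4.31e-08, edgeR). Since young naïve pools held 6 counts in all, the ratio of summed counts in young mice, 98.4, has a 95% counting interval of 45.0 to 269.2. The corresponding ratio in middle-aged mice was 28.3 (20.1 to 41.1).

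Plat, tissue-type plasminogen activator, is the fibrin-dependent activator of vessels and neurons (chr8:22757727-22782844, plus strand, ENSMUSG00000031538). Its pools read 138.7, 185.3 and 207.8 CPM in young naïve, 113.9, 128.4 and 150.1 in middle-aged naïve, 132.6, 135.1 and 134.4 in young injured, and 109.2, 100.9 and 89.6 in middle-aged injured mice. Every lesion pool was below every naïve pool of its age, by a narrow margin between the nearest pools. Fitted log2 fold changes were -0.40 ± 0.15 in young mice (SE, adjusted p = 0.0327, edgeR) and -0.39 ± 0.15 in middle-aged mice (adjusted p = 0.0364, edgeR). Both calls depended on the processing: with library totals in place of TMM factors the values were -0.21 (adjusted p = 0.265, edgeR) and -0.28 (adjusted p = 0.13, edgeR). Without single pools, 5 of 6 fits in young mice and 3 of 6 in middle-aged mice missed the threshold, with log2 fold changes of -0.55 to -0.27 and -0.48 to -0.28.

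The balance between the activators shifted with these changes. Per kilobase of exon, the scale on which levels of different genes can be set side by side, the level of Plau relative to Plat was 0.00173, 0.00516 and 0.00136 in young naïve pools and 0.00889, 0.0258 and 0.0253 in middle-aged naïve pools. It was 0.331, 0.316 and 0.324 in young lesions and 0.832, 0.62 and 0.719 in middle-aged lesions. The 4 groups followed one another without overlap, naïve tissue before lesions and within each the young before the middle-aged mice, and Plat stayed above Plau in all 12 pools.

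**Figure D2:**
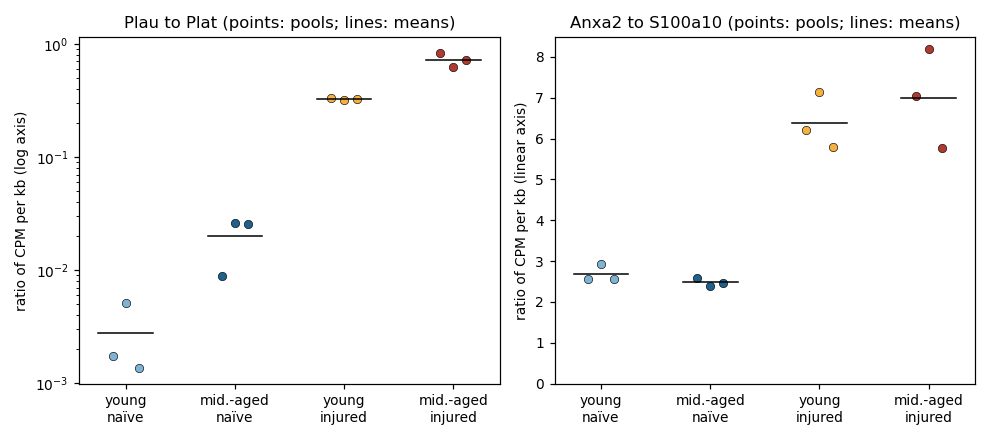
Ratio of Plau to Plat (left, logarithmic axis) and of Anxa2 to S100a10 (right, linear axis) in each pool, both from CPM per kilobase of exon. Points are pools and lines are group means, which for Plau to Plat are 0.00275, 0.0200, 0.324 and 0.724 from left to right and for Anxa2 to S100a10 are 2.69, 2.48, 6.39 and 6.998.

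Plaur, the membrane-anchored receptor that binds urokinase, lies at chr7:24462484-24475968 on the plus strand (ENSMUSG00000046223). Its counts were 3, 1 and 5 in young naïve, 9, 7 and 5 in middle-aged naïve, 174, 154 and 172 in young injured, and 244, 235 and 153 in middle-aged injured pools. Receptor and ligand were thus both scarce in naïve tissue and both present in all lesions. In young mice Plaur changed by 5.39 ± 0.39 on the log2 scale (SE, adjusted p = 4.83e-08, edgeR) and in middle-aged mice by 4.71 ± 0.35 (adjusted p = 4.36e-08, edgeR). The ratio of summed counts was 50.1 (26.2 to 110.2) and 29.1 (18.9 to 47.4). Per kilobase, Plau was 1.41 to 1.5 times the level of Plaur in young lesions and 1.40 to 2.05 times in middle-aged lesions.

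Anxa2 encodes annexin A2, which pairs with S100A10 to hold plasminogen and tissue-type activator on the cell surface (chr9:69453620-69491795, plus strand, ENSMUSG00000032231). Its level was 300.1, 340.7 and 256.8 CPM in young naïve, 344.1, 314.9 and 277.2 in middle-aged naïve, 1933, 2096 and 1809 in young injured, and 2165, 2934 and 2174 in middle-aged injured pools. The naïve groups overlapped, and middle-aged injured replicate 2 was the highest of all pools. On the log2 scale Anxa2 rose by 2.70 ± 0.15 in young mice (SE, adjusted p = 4.61e-09, edgeR) and 2.96 ± 0.16 in middle-aged mice (adjusted p = 1.97e-09, edgeR).

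S100a10, the partner subunit, also rose, but by less. Its mean level was 36.0 ± 3.06, 40.8 ± 3.74, 99.2 ± 3.47 and 112.9 ± 11.7 CPM in naïve young, naïve middle-aged, injured young and injured middle-aged mice (SD, n = 3 each), with log2 fold changes of 1.46 ± 0.12 and 1.47 ± 0.12 (SE, adjusted p = 2.29e-07 and 1.78e-07, edgeR). Per kilobase, Anxa2 was 2.57 to 2.94 times S100a10 in young naïve pools, 2.39 to 2.59 times in middle-aged naïve pools, 5.80 to 7.15 times in young lesions and 5.77 to 8.19 times in middle-aged lesions. The ratios in lesions did not overlap those in naïve tissue.

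Plgrkt, a transmembrane plasminogen receptor of monocytes and macrophages, is on the minus strand at chr19:29348599-29367390 (ENSMUSG00000016495). It read 7.47, 8.34 and 9.03 CPM in young naïve, 11.2, 10.2 and 9.84 in middle-aged naïve, 28.8, 36.0 and 29.7 in young injured, and 33.3, 30.3 and 31.2 in middle-aged injured pools. Lesions of the 2 ages overlapped, and naïve pools of the 2 ages did not. The fitted log2 change was 1.93 ± 0.16 in young mice (SE, adjusted p = 1.75e-07, edgeR) and 1.60 ± 0.16 in middle-aged mice (adjusted p = 8.03e-07, edgeR).

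The inhibitors each had a pattern of their own. Serpinb2, also called PAI-2, inhibits urokinase and is known as a largely intracellular serpin of stimulated monocytes, macrophages and keratinocytes. The gene lies at chr1:107511423-107535478 on the plus strand (ENSMUSG00000062345). Its counts were 4, 2 and 4 in young naïve pools, 1, 0 and 0 in middle-aged naïve, 7, 10 and 2 in young injured, and 64, 301 and 40 in middle-aged injured pools. Only the 3 middle-aged injured pools stood clear of the rest, and among them replicate 2 was far above the other two.

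By library totals, the 3 middle-aged lesions had 5.50 CPM (exact 95% interval 4.24 to 7.03), 24.8 CPM (22.1 to 27.8) and 3.54 CPM (2.53 to 4.82). Serpinb2 was chosen by its level in these pools, so the intervals describe counting error and are no test against other groups. The intervals of replicates 1 and 3 overlapped, and that of replicate 2 lay apart from both. On the TMM scale the group means were 0.325 ± 0.129, 0.0320 ± 0.0554, 0.480 ± 0.314 and 10.9 ± 11.4 CPM in naïve young, naïve middle-aged, injured young and injured middle-aged mice (SD, n = 3). Without replicate 2 the mean of middle-aged lesions was 4.38 CPM. Summed counts of middle-aged and young lesions were 405 and 19, and 301 of the 405 came from replicate 2. Naïve tissue had 1 count in middle-aged against 10 in young pools, with a fitted log2 fold change of -2.99 ± 1.59 (SE). No test is given for it, since Serpinb2 passed the filter on low counts only through its middle-aged lesions. The middle-aged naïve pools, with 0 or 1 count, lay below the young ones, with 2 to 4, an order without overlap that 9.34% of all genes shared.

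Neighbours of Serpinb2 on chromosome 1 mostly had no counts. Of the 11 other serpins of its cluster, Serpinb13, Serpinb3a, Serpinb3b, Serpinb3c, Serpinb3d, Serpinb11, Serpinb7 and Serpinb10 had 0 counts in all 12 pools. Serpinb10 shares 291 exon bases with Serpinb2, and 11.2% of the 31-base words of Serpinb2 transcripts also occur in other genes, and how shared reads were counted is not given in the sources used here. Serpinb5 and Serpinb8 had enough counts for a test. Serpinb8, at chr1:107590006-107610484, read 0.547, 0.635 and 0.430 CPM in young naïve, 1.73, 0 and 0.320 in middle-aged naïve, 14.1, 15.04 and 14.8 in young injured and 17.6, 15.1 and 15.4 in middle-aged injured pools. It rose in lesions of both ages (log2 fold change 4.73 ± 0.55, adjusted p = 4.89e-06, and 4.54 ± 0.53, adjusted p = 4.59e-06, SE, edgeR), unlike Serpinb2, whose young lesions held 2 to 10 counts. Serpinb5 did not pass the test in either comparison.

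Keratinocytes express Serpinb2 strongly, so their markers were read as well. Krt5 and Krtdap had 0 counts in every pool, and Krt14 and Lor had at most 1. Summed over 7 keratinocyte markers, the level was 2.16 to 2.82 CPM in middle-aged lesions, 2.11 to 3.41 in young lesions, 3.73 to 5.70 in young naïve and 5.12 to 9.50 in middle-aged naïve pools. The sum was lower in lesions than in naïve tissue. The 6 serosal macrophage markers summed to 25.3 to 29.0 CPM in middle-aged lesions and 16.2 to 27.4 in young lesions, ranges that overlapped. Over all naïve pools they summed to 4.95 to 18.1 CPM. Within this list, Saa3 (6.64, 9.66 and 11.8 against 3.16, 4.57 and 3.46 CPM) and Alox15 lay apart with middle-aged lesions higher than young ones. The others overlapped, and 11.1% of all genes lay apart in this direction. Of the 5 tested, 0 passed in edgeR and DESeq2 called 1 higher, against 2.84% of all genes in either direction. The part of keratinocytes and serosal macrophages in the level of Serpinb2 was not tested.

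Serpine2, also called protease nexin-1, is a glial serpin that inhibits thrombin, urokinase and tissue-type activator. It is on the minus strand at chr1:79794197-79861180 (ENSMUSG00000026249). Its level was 708.7, 679.2 and 556.9 CPM in young naïve, 638.1, 655.5 and 616.9 in middle-aged naïve, 887.2, 1011 and 1026 in young injured, and 706.2, 742.9 and 742.6 in middle-aged injured pools. All 3 young lesions were above all 9 other pools. With injury Serpine2 changed by 0.59 ± 0.11 in young mice on the log2 scale (SE, adjusted p = 0.000417, edgeR) and 0.20 ± 0.11 in middle-aged mice (adjusted p = 0.138, edgeR), but the difference between these values, -0.39 ± 0.16, did not pass (adjusted p = 0.407, edgeR). With library totals the middle-aged value also passed (0.31, adjusted p = 0.0234, edgeR).

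Plg, the gene of plasminogen itself, had 0 counts in 11 pools and 1 in the other, and Serpinf2, the inhibitor of plasmin, had at most 11 and was not tested.

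Thbd, thrombomodulin, is the endothelial receptor that turns thrombin from clotting to the activation of protein C (chr2:148404466-148408188, minus strand, ENSMUSG00000074743). Its level was 19.4, 18.2 and 20 CPM in young naïve, 27.6, 18.1 and 21.7 in middle-aged naïve, 100.6, 38.2 and 42.6 in young injured, and 94.2, 120.0 and 92.3 in middle-aged injured pools. Young injured replicate 1 was in the range of middle-aged lesions, apart from the other two of its group. Thbd rose with injury by 1.65 ± 0.30 in young mice on the log2 scale (SE, adjusted p = 0.000314, edgeR) and 2.18 ± 0.30 in middle-aged mice (adjusted p = 2.35e-05, edgeR). The endothelial markers Cdh5 and Pecam1 were also highest among young lesions in replicate 1, at 56.9 against 39.2 and 31.8 CPM and at 43.0 against 34.8 and 28.5 CPM, as were Flt1 and Tek, whereas Cldn5 and Kdr were highest in replicate 2. Of the 6 endothelial markers 3 (Pecam1, Cdh5 and Kdr) rose in lesions at both ages, and Flt1 fell in middle-aged lesions. Their summed level was 142.5 to 193.0 CPM in young naïve, 208.8 to 250 in middle-aged naïve, 196.8 to 252.1 in young injured and 259.0 to 299.7 in middle-aged injured pools. Their part in the result was not tested.

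F13a1 encodes the catalytic subunit of factor XIII, the transglutaminase that cross-links fibrin and makes it harder for plasmin to dissolve, and it is a known gene of macrophages and megakaryocytes. It lies at chr13:36867178-37050244 on the minus strand (ENSMUSG00000039109), and 74 of its exon bases overlap antisense genes, whose reads cannot be told from its own if counting ignored strand. Its counts were 17, 19 and 18 in young naïve, 77, 51 and 47 in middle-aged naïve, 2924, 3157 and 2769 in young injured, and 2434, 2876 and 2477 in middle-aged injured pools. Naïve tissue separated by age and lesions did not. Mean levels of 1.74 ± 0.194 and 222.6 ± 19.4 CPM in young mice, and of 5.50 ± 1.82 and 215.2 ± 13.8 CPM in middle-aged mice (SD, n = 3), gave log2 fold changes of 7.0 ± 0.22 (SE, adjusted p = 3.52e-11, edgeR) and 5.30 ± 0.20 (adjusted p = 9.67e-11, edgeR), respectively.

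**Figure D3:**
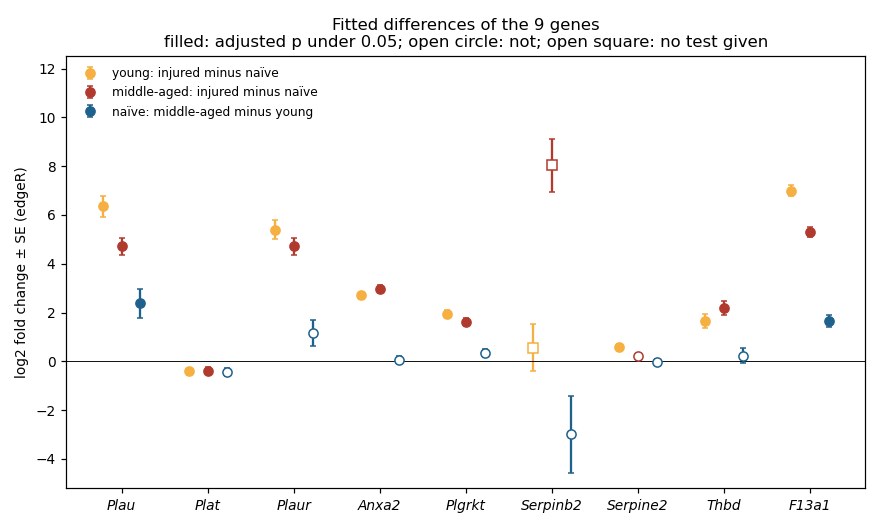
Fitted log2 fold change of each of the 9 genes with its SE for injury in young mice, injury in middle-aged mice and age in naïve mice. Filled circles passed an adjusted p of 0.05, open circles did not, and squares are values of Serpinb2 given without a test. The circle of Serpinb2 for age in naïve mice is likewise only a description. F13a1 has the highest tested change in young mice, 7.0, and its change in middle-aged mice is 5.30.

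Markers of several cell types moved with injury as well. All 6 pan-myeloid markers (Aif1, Ptprc, Cd68, Itgam, Csf1r and Tyrobp) rose in lesions at both ages, and their summed level was 71.8 to 102 CPM in young naïve, 109.7 to 147.2 in middle-aged naïve, 1373 to 1394 in young injured and 1461 to 1950 in middle-aged injured pools. All 6 markers of recruited monocytes and macrophages (Ccr2, Ly6c2, Plac8, Lyz2, Ms4a7 and Chil3) rose as well. Their sum went from 17.9 to 24.0 CPM in young naïve and 80.3 to 108.6 in middle-aged naïve to 5689 to 7262 in young and 7306 to 7899 in middle-aged lesions. Lyz2 made up most of this sum, with means of 21.5, 95.7, 6118 and 7360 CPM in the same order. In young naïve tissue the 5 others had 3 counts or fewer in every pool. All 5 fibroblast markers rose at both ages, from 72.8 to 110.4 CPM over naïve pools to 657.3 to 1056 in young and 302.1 to 580.8 in middle-aged lesions. Markers of homeostatic microglia went both ways, with 2 of 5 higher (Tmem119 and P2ry13) and 1 lower (Sall1) in young lesions, and 0 higher and 2 lower (Sall1 and Siglech) in middle-aged lesions. The summed level of 5 platelet and megakaryocyte markers was 1.06 to 1.89 CPM over naïve pools and 5.20 to 9.46 over lesions. Of these, Pf4 had 2 to 12 counts in naïve pools and 54 to 110 in lesions and rose at both ages, Gp1bb did not pass at either age, and Itga2b, with at most 13 counts, Ppbp, with at most 3, and Gp9, with at most 1, were not tested. The part of these cell types in the results for the 8 members was not tested.

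Age in naïve tissue touched fewer of the genes. Plau and F13a1 were higher in middle-aged naïve mice, and the others tested did not pass. These are 2 of the 8 members other than Serpinb2, where 3.8% of all genes passed in either direction with 2.02% higher and 1.78% lower. The age difference was 2.38 ± 0.58 on the log2 scale for Plau (SE, adjusted p = 0.0389, edgeR) and 1.65 ± 0.24 for F13a1 (adjusted p = 0.00219, edgeR), and each was higher in 3 of 3 pools. The median over the 9 members, Serpinb2 included, was 0.23, against 0.013 over all genes. Pools lay apart, with middle-aged mice higher, for Plau, Plgrkt and F13a1, and lower for Serpinb2, where 7.77% and 9.34% of all genes did so in the 2 directions. Plgrkt differed by 0.33 ± 0.16 (SE, adjusted p = 0.296, edgeR), Plaur by 1.15 ± 0.53 (adjusted p = 0.267, edgeR) and Plat by -0.44 ± 0.15 (adjusted p = 0.127, edgeR), while Serpine2, Thbd and Anxa2 were between -0.03 and 0.23.

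Both calls with age were fragile in some fits. For Plau, with 6 counts in all young naïve pools, the ratio of summed counts was 5.58 (2.32 to 16.3). Plau and Plaur passed the filter on low counts through their lesion pools, and with naïve pools alone they had too few counts to be tested. A block for replicate number ended the call of Plau (adjusted p = 0.0617, edgeR), and it was lost in 4 of 6 fits without 1 pool. For F13a1 it was lost when only naïve pools were fitted (log2 fold change 1.67, adjusted p = 0.144, edgeR) and kept in all 6 fits without 1 pool. Of the 6 pan-myeloid markers 4 were higher in middle-aged naïve mice, as were 2 of 6 markers of recruited monocytes and macrophages, and their part in the result was not tested.

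Between lesions of young and middle-aged mice, 0 of 8 members passed the test in edgeR, although 5 had an unadjusted p under 0.05, and DESeq2 called 1. Among all genes 1.15% passed in edgeR, 0.24% higher and 0.908% lower in middle-aged lesions, 9.62% had an unadjusted p under 0.05, and DESeq2 called 2.84%. The log2 difference, middle-aged minus young, was 0.74 ± 0.27 for Plau (SE, adjusted p = 0.288, edgeR), 0.76 ± 0.29 for Thbd (adjusted p = 0.326, edgeR), -0.42 ± 0.11 for Serpine2 (adjusted p = 0.103, edgeR) and -0.42 ± 0.15 for Plat (adjusted p = 0.27, edgeR). It was 0.47 for Plaur, 0.32 for Anxa2, 0.01 for Plgrkt and -0.05 for F13a1, and the median was 0.16 against 0.0022 over all genes. The pools of the 2 ages lay apart for 5 of the 8, with middle-aged lesions higher for Plau, Plaur and Anxa2 and lower for Serpine2 and Plat. Among all genes, 11.1% lay apart with middle-aged lesions higher and 12.2% with them lower.

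Other fits called some of these differences. Serpine2 passed with DESeq2 (-0.40, adjusted p = 0.0149), with library totals (adjusted p = 0.0429, edgeR) and with only lesion pools in the model (adjusted p = 0.0256, edgeR). In that last fit Plau and Plat passed too (0.74, adjusted p = 0.0163, and -0.43, adjusted p = 0.0222, edgeR), and it called 818 of 15048 genes, against 182 in the main fit. Thbd passed without young injured replicate 1 (1.35, adjusted p = 0.0073, edgeR) and without a filter on low counts (0.75, adjusted p = 0.027, edgeR). These 2 fits called 102 and 437 genes. Middle-aged lesions had lower levels of 4 of the 5 oligodendrocyte markers than young lesions, of 2 of the 5 fibroblast markers (Col1a1, 20.8 against 78.8 CPM, and Col1a2, 197.7 against 542.7 CPM) and of 1 of the 6 astrocyte markers (Gja1). In edgeR 0 of 6 pan-myeloid and 0 of 6 recruited monocyte and macrophage markers passed, with 2 and 4 at an unadjusted p under 0.05. DESeq2 called 0 of the former and 2 of the latter, both higher in middle-aged lesions. The pools of Ccr2, Plac8 and Chil3 lay apart, also with middle-aged lesions higher, as did those of 3 of the 6 pan-myeloid markers (Ptprc, Cd68 and Itgam). Those of 3 of the 5 homeostatic microglia markers (P2ry12, Sall1 and Siglech) lay apart with middle-aged lesions lower. Among all genes, these shares were 11.1% higher and 12.2% lower. Their part in these differences was not tested.

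The effect of injury differed with age for 1 of 8 members, F13a1, where 0.139% of all genes passed, 0.0567% with a higher and 0.0819% with a lower effect in middle-aged mice. The difference of its log2 fold changes was -1.70 ± 0.29 (SE, adjusted p = 0.034, edgeR). The comparisons share pools: lesion levels of F13a1 differed by -0.05 and naïve levels by 1.65 on the log2 scale. The call was kept in all 7 other settings and lost in 9 of 12 fits that left out 1 pool, with differences of -1.93 to -1.42. Among markers of recruited monocytes and macrophages, 1 of 6 also had a smaller effect in middle-aged mice. For the 7 other members the difference ran from -1.64 ± 0.65 for Plau (SE, adjusted p = 0.406, edgeR) to 0.53 ± 0.42 for Thbd (adjusted p = 0.738, edgeR), and the median over the 8 was -0.36 against -0.046 over all genes. Serpinb2 had fitted log2 fold changes of 0.56 in young and 8.04 in middle-aged mice, which rest on 10 and 1 naïve counts and depend on the prior count of the fit.

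Levels of different members were compared per kilobase of annotated exon. In young naïve tissue Anxa2 (80.2 ± 11.3 CPM per kb, SD, n = 3) and Serpine2 (78.2 ± 9.71) were the most abundant, and their pools overlapped. They were followed by Plat (28.4 ± 5.65), Thbd (5.16 ± 0.243) and Plgrkt (2.18 ± 0.206). F13a1 (0.258 ± 0.0287) came next, and Serpinb2 (0.139 ± 0.0549), Plaur (0.115 ± 0.0859) and Plau (0.0790 ± 0.0643) overlapped each other. Middle-aged naïve tissue had 83.6 ± 8.999 CPM per kb of Anxa2 and 76.9 ± 2.33 of Serpine2, again overlapping, then 21.0 ± 2.92 of Plat, 6.03 ± 1.28 of Thbd and 2.74 ± 0.191 of Plgrkt. F13a1 (0.816 ± 0.27) overlapped Plau (0.434 ± 0.239), which overlapped Plaur (0.255 ± 0.0915), and Serpinb2 (0.0136 ± 0.0236) was below them all.

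The order changed in lesions, where Anxa2 stood alone. In young lesions it reached 521.6 ± 38.6 CPM per kb, followed by Serpine2 (117.6 ± 9.19), F13a1 (33.0 ± 2.88), Plat (21.5 ± 0.203), Thbd (16.2 ± 9.35), Plgrkt (8.30 ± 1.02), Plau (6.95 ± 0.0988), Plaur (4.797 ± 0.207) and Serpinb2 (0.204 ± 0.134). The pools of Plat and Thbd overlapped there. In middle-aged lesions the order was Anxa2 (649.8 ± 118.4), Serpine2 (88.2 ± 2.54), F13a1 (31.9 ± 2.06), Thbd (27.4 ± 4.16), Plat (16.0 ± 1.58), Plau (11.6 ± 2.54), Plgrkt (8.33 ± 0.397), Plaur (6.65 ± 1.42) and Serpinb2 (4.66 ± 4.85). The pools of F13a1 and Thbd overlapped, as did those of Plat and Plau. Serpinb2, with its replicate 2 far above the other two, overlapped Plau, Plgrkt and Plaur. F13a1 was below Plat in all naïve pools and above it in all lesions.

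**Figure D4:**
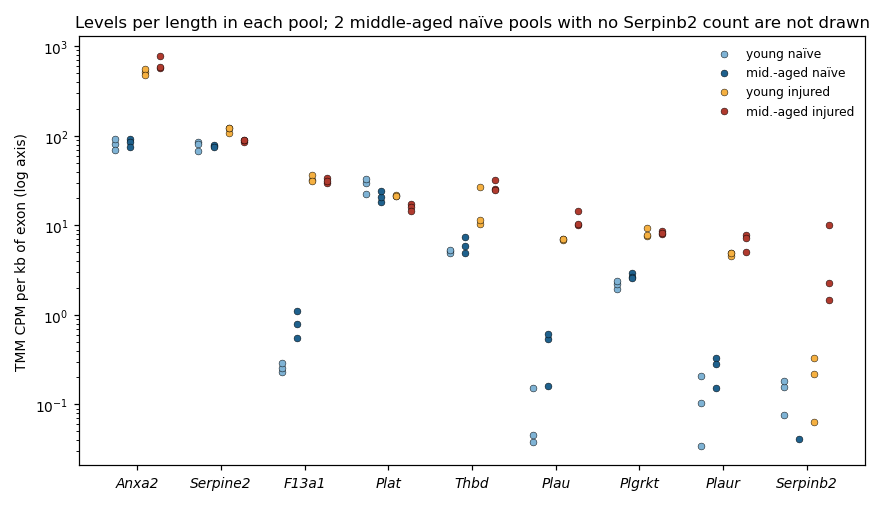
CPM per kilobase of exon of the 9 genes in each pool on a logarithmic axis, with a colour for each group. Anxa2 and Serpine2 are highest in all groups, and F13a1 moves from 0.258 and 0.816 CPM per kb in young and middle-aged naïve tissue to 33.0 and 31.9 in lesions.

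Partner genes of fibrinolysis were read next, from a list of 24 of which 17 had enough counts. In young lesions 11 rose and 3 fell, with a median log2 fold change of 1.24. In middle-aged lesions 12 rose and 4 fell, with a median of 1.097. Among all genes 28.3% rose and 26.3% fell in young mice, and 29.2% and 29.3% in middle-aged mice. The medians of all genes were 0.00050 and -0.032. The partners with the highest changes were Itgb2 and Itgam, the chains of a leukocyte integrin that binds fibrin and urokinase receptor, St14, a membrane protease that can activate urokinase, and Hgf, a growth factor related to plasminogen in sequence. Itgb2 had 5.50 ± 0.43 and 191.0 ± 8.54 CPM in naïve and injured young mice and 12.1 ± 3.39 and 268.6 ± 52.9 CPM in the older groups (SD, n = 3). Its log2 fold change was 5.12 and 4.46 (adjusted p = 2.79e-10 and 5.37e-10, edgeR), that of Itgam 4.43 and 3.92, that of St14 3.93 and 3.65, and that of Hgf 3.87 and 3.54.

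The partners that fell at both ages were Serpini1, Vldlr and Vtn. Lrp8 fell in middle-aged mice, by -0.85 on the log2 scale, and had a value of -0.32 in young mice. Serpini1 encodes neuroserpin, a neuronal inhibitor of tissue-type activator, and its mean level went from 60.8 to 14.4 CPM in young and from 55.1 to 15.02 CPM in middle-aged mice (log2 fold change -2.08 ± 0.34 and -1.87 ± 0.34, SE, adjusted p = 0.000138 and 0.000303, edgeR). Young naïve replicate 3 was low for this gene, at 22.5 CPM against 87.5 and 72.3. The 4 neuronal markers summed to 680.8 to 1976 CPM in young naïve and 274.8 to 479.7 in young injured pools. Their sum was 1167 to 1239 in middle-aged naïve and 363.1 to 445.6 in middle-aged injured pools, and Snap25 was the highest of them. In young lesions 2 of the 4 fell and 0 rose. In middle-aged lesions 3 fell and Slc17a6 rose, from a mean of 6.43 to 18.55 CPM. The part of these markers in the result was not tested. Vldlr, a receptor that clears serpin and protease complexes, changed by -1.30 and -1.56, and Vtn, vitronectin, an adhesive protein that binds urokinase receptor, by -0.63 and -1.85. With age in naïve mice 3 partners were higher (Itgb2 by 1.14, Itgam by 1.11 and Serpinb6a by 0.74 on the log2 scale) and 1 was lower (Pdgfc by -0.78). Among all genes 2.02% were higher and 1.78% lower. Between lesions of the 2 ages 0 of 17 passed in edgeR. An unadjusted p under 0.05 was seen for 6 (9.62% of all genes), and DESeq2 called 1 (2.84% of all genes).

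Of 25 genes of coagulation 15 were tested, and 11 rose and 1 fell in lesions at each age, with medians of 2.62 and 2.24. Among all genes 28.3% rose and 26.3% fell in young mice, and 29.2% and 29.3% in middle-aged mice, with medians of 0.00050 and -0.032. F7 and F10, the proteases of the initial clotting step, had at most 1 count in any naïve pool. F7 had 185 to 295 counts in young and 311 to 421 in middle-aged lesions, and F10 had 122 to 161 and 221 to 383. Next came Procr, the protein C receptor, with 24 to 66 and 45 to 73 counts in lesions and at most 2 in naïve pools, and Tfpi2, a protease inhibitor of the matrix, which went from 0.556 to 6.23 CPM in young and from 0.224 to 14.6 CPM in middle-aged mice. Serpind1, heparin cofactor II, which inhibits thrombin, fell from 28.5 ± 6.76 to 11.6 ± 2.005 CPM in young and from 79.0 ± 10.4 to 13.6 ± 2.95 CPM in older naïve and injured pools (SD, n = 3).

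In naïve tissue 3 of the 15 were higher and 0 lower with age, against 2.02% and 1.78% of all genes. Serpind1 was higher in middle-aged mice by 1.47 ± 0.21 (SE, adjusted p = 0.00176, edgeR), Vwf by 1.22 ± 0.32 (adjusted p = 0.0497) and Tgm2, a transglutaminase of tissue, by 0.83 ± 0.21 (adjusted p = 0.0414). Between lesions F10 was the 1 gene of the list that passed, where 0.24% of all genes were higher in middle-aged lesions and 0.908% lower. F10 had 8.96, 12.48 and 9.41 CPM in young and 31.8, 25.6 and 19.1 CPM in middle-aged mice (log2 difference 1.31 ± 0.25, SE, adjusted p = 0.0397, edgeR). The lowest middle-aged pool was above the highest young one. For the difference of injury effects 0 of 17 partners and 0 of 15 coagulation genes passed in edgeR, with 5 and 4 at an unadjusted p under 0.05 (9.92% of all genes) and 2 and 1 called by DESeq2 (1.56%).

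**Figure D5:**
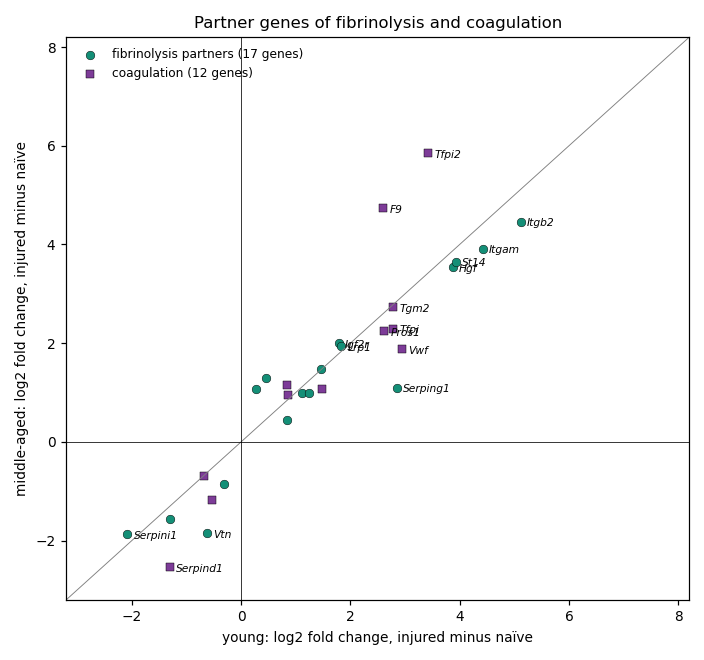
Log2 fold change with injury in young mice (horizontal) against middle-aged mice (vertical) for 17 fibrinolysis partners and 12 coagulation genes, the 3 coagulation genes with a naïve group at or near 0 counts (F7, F10 and Procr) being left out. The line marks equal change, and both axes use separate naïve and injured pools. Of the genes plotted, Itgb2 is farthest to the right with 5.12 and 4.46, and Serpini1, Vldlr, Vtn and Serpind1 are at the lower left.

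Genes whose pattern over the 12 pools was most like that of a member were ranked by Pearson's r of log2 CPM among 13084 genes, as a description over pools that share groups. F13a1 was most like Lyz2, a lysozyme of macrophages (r = 0.997), which had 21.5, 95.7, 6118 and 7360 CPM in naïve young, naïve middle-aged, injured young and injured middle-aged mice. Atf3, Adcy7, Havcr2 and Otulinl followed. Plgrkt was most like Sp110 (r = 0.995) and had F13a1 in the next place (r = 0.995). Plau was most like Tor1aip1, Vamp8, Lgals3, Gpr35 and C1qc (r = 0.995 to 0.993), of which Lgals3 had 1.39, 13.5, 518.5 and 899 CPM. Plaur was most like Emp3, Nab2, Wfdc17, Galc and Adam8 (r = 0.997 to 0.993), and Anxa2 like Tnfaip8, Lmo2, Galk2, 4930430E12Rik and Spcs2 (r = 0.998 to 0.996).

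The remaining members had other company. Thbd was most like Gm26809 (r = 0.962), Pecam1, an endothelial and leukocyte adhesion gene (r = 0.96), and Alkbh5, Jun and Mafg. Serpine2 was most like Serpina3c, Ralgps2, Dpysl3, Lhfp and Gm13568 (r = 0.912 to 0.887), and Plat like Pdk3, Mvb12b, Patz1, Nol4l and Abl1 (r = 0.961 to 0.922). For Serpinb2, whose values in 9 pools rest on 10 counts or fewer, the highest r was with Slc52a2 (0.934), and Gadd45a, Hip1 and Gtf2f2 were also among the 5 highest. Over the 6 lesion pools it was with Angptl4 (0.998), Gm17638, Capza1, Camk1 and Rpl10. Among the members themselves, r over the 12 pools was 0.956 to 0.995 between Plau, Plaur, Plgrkt, F13a1 and Anxa2. It was -0.277 to -0.708 between Plat and the others, and 0.143 between Serpinb2 and Serpine2.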

How the data were processed

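The samples were 12 RNA sequencing libraries of laser-captured white matter, with 4 groups of 3 pools and 5 mice to a pool. Groups and replicate numbers came from the labels, ages and the time of tissue collection from the methods. The authors checked reads with FastQC 0.11.4, aligned them to GRCm38 (TopHat 2.0.10, with bowtie 1.1.2 inside it) and deposited raw featureCounts counts per gene. The featureCounts version, annotation release, strand setting and handling of shared reads are not given in the sources used here. If shared reads were dropped, counts of genes with overlapping exons would be too low.

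From these counts, 15866 genes were tested in R 4.3.3 with edgeR 4.0.16 (TMM, filterByExpr, quasi-likelihood F test, 1 coefficient for each of the 4 groups over 12 pools), with Benjamini-Hochberg adjustment over all of them and a threshold of 0.05. Contrasts were injured against naïve at each age, middle-aged against young in naïve mice and in lesions, and the interaction of age with injury. CPM were scaled with TMM, except those of Serpinb2 that are said to be by library totals, and divided by the kb of merged exons (GENCODE on GRCm38) for levels between genes. Log2 CPM used a prior count of 2. Intervals are exact Clopper-Pearson or conditional binomial intervals at 95%. The steps were tested on simulated counts. The members and lists were chosen with earlier results of these data known. Named were all 9 members, up to 4 called genes with the highest and up to 4 with the lowest change from each list, Plg, Serpinf2 and S100a10, and up to 5 genes by likeness. Results were recomputed with 3 other scalings, 2 other filters on low counts, a replicate block, DESeq2 1.42.0, only the pools compared, and each pool left out. The results for 4 further genes are not reported here, and they are in no list counted here. The other experiments of the study were not analysed here. Totals of 9834447 to 12807437 counts per pool put the floor of 3 counts at 0.234 to 0.305 CPM.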

Additional observations from a re-analysis of the deposited data

Results flagged for a closer look

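The effect of injury on F13a1 differed between ages: the log2 fold changes, middle-aged minus young, differed by -1.70 (an interaction term in edgeR, adjusted p = 0.034). Counts in the naïve pools were 17 to 19 in young and 47 to 77 in middle-aged mice, and lesions of both ages had 2434 to 3157. Without 1 pool the adjusted p was 0.00888 to 0.13, and 9 of 12 such fits missed the threshold.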

How the results depend on the processing

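Members called higher with injury in young mice were 7 in all 8 other settings and all 6 fits without 1 pool, and in middle-aged mice 6 or 7. With library totals, the members called lower with injury were 0 at both ages, and 1 was called lower in middle-aged than in young lesions. The age effect in lesions had 1 member higher without a filter on low counts, 1 lower with DESeq2, and 1 higher and 2 lower with only the pools compared. The age effect in naïve mice had 0 members higher with only the pools compared, a fit in which Plau, Plaur and Serpinb2 had too few counts to be tested. Without 1 pool, the members called were 0 to 1 lower with injury at each age, 1 to 2 higher and 0 to 1 lower with age in naïve mice, 0 to 1 higher with age in lesions, and 0 to 1 lower for the difference of injury effects.

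The replicate number as a block left 1 member higher with age in naïve mice, F13a1, and changed no other count of members. Deviations of same-numbered pools from their group means had r = -0.113 to 0.153, not every pair above 0.1. Differently numbered pools had r = -0.174 to 0.172. With 3 pools a group, this cannot tell whether same-numbered pools were processed together. Over all genes the block gave 529 calls with age in naïve mice against 603, and 189 against 182 in lesions.

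Values near 0 changed sign. Serpine2 with age in naïve mice was 0.0010 with library totals and -0.126 to 0.041 without 1 pool, and Anxa2 in the same comparison was -0.040 to 0.162 without 1 pool. In lesions of the 2 ages, Plgrkt was -0.053 with library totals and -0.046 to 0.115 without 1 pool, and F13a1 was -0.095 to 0.030 without 1 pool. The difference of injury effects on Plat was -0.073 with library totals and -0.115 to 0.165 without 1 pool. The cause was not tested.

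Library totals shifted the median of all genes to 0.197 with injury in young mice and to -0.132 for the difference of injury effects, and higher genes made up 62.4% of calls with injury in young mice (51.8% with TMM), 62.0% with age in naïve mice (53.2%) and 25.8% for the difference (40.9%). Calls over all genes for age in naïve mice (603) were 1114 with DESeq2, 71 with only the pools compared and 1153 without a filter. In lesions (182) they were 450, 818 and 437, and for the difference (22) 238 with DESeq2 and 329 without a filter. Depth limits Serpinb2, Plau and Plaur in naïve tissue, where pools held 0 to 18 counts.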
